A study of Mus musculus with 7 samples.

Results

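The transcription factors that define the microglial lineage were followed in retinal microglia (rMG) of mice labelled Irf8 KO, before and after laser injury. The genes were chosen by name, Spi1, Runx1, Cebpa, Cebpb, Mef2a, Mef2c, Sall1, Sall3 and Maf, and all 9 were found among the 40743 genes of the table. The study sorted rMG by flow cytometry to compare Irf8 KO with control mice, in the steady state and during choroidal neovascularisation (CNV), the growth of choroidal vessels under and into the retina, which was induced by laser. Lasered and unlasered libraries labelled Irf8 KO are compared here. Of 7 libraries, 3 came from unlasered mice and 4 from lasered mice, collected a week after the laser. Both groups were adult and carried the same alleles, Irf8-/- and Cx3cr1GFP/+, on a C57BL/6J background, so that the microglia were marked by GFP in place of 1 copy of the fractalkine receptor. The sort gate was CD45low CD11b+ Cx3cr1GFP+ Ly6C- Ly6G-, and each library held cells pooled from 3 to 4 mice, 10000 cells on average. Whole retinae were used for unlasered mice but only the central 70% for lasered mice, so laser and retinal region cannot be told apart. The wild-type libraries were not analysed here.

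Microglia descend from yolk sac progenitors, and their identity rests on a small set of DNA-binding proteins. PU.1, encoded by Spi1, is the master regulator of myeloid cells and pairs with IRF8 on composite DNA sites. RUNX1, C/EBP and MEF2 factors bind beside it at macrophage enhancers, SALL1 keeps the resting microglial state, and MAF factors drive genes of tissue macrophages.

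Sequencing depth was 20427558 to 36022954 reads in the unlasered and 37133297 to 45919042 reads in the lasered libraries, and the level that 3 reads give was 0.0653 to 0.147 CPM (reads scaled to the same total in every library). This floor allows for counting error alone, since several reads can stem from 1 molecule. Irf8 itself, the targeted gene, had 530, 489 and 507 CPM in unlasered libraries 1, 2 and 3 and 463, 465, 475 and 582 CPM in lasered libraries 1 to 4. Its reads were listed only jointly with Gm20388 and do not show whether a full transcript was made, so the libraries are named by their label. The microglial markers were high in every library and summed to 23027 to 27586 CPM without and 20653 to 27869 CPM with laser over 8 genes, of which 0 passed the test between groups and 3 had an unadjusted p under 0.05 (limma), as did 22.7% of all genes tested. By DESeq2 (2318 of 17496 genes called) and by limma without lasered library 4 (797 of 17352 genes called), P2ry12 was called lower. Rod photoreceptor genes were also detected. The summed level of their 15 markers was 2251, 20191 and 5780 CPM in unlasered libraries 1, 2 and 3 and 321 to 1020 CPM after laser, and 14 of the 15 were called lower. Markers of border macrophages summed to 2175 to 2715 and 1308 to 1578 CPM over 7 genes, with Pf4 and Ms4a7 called lower. Pf4 kept the call in 2 and Ms4a7 in 1 of 7 fits with a library left out (adjusted p up to 0.0808 and 0.139, limma), and DESeq2 also called Cbr2 higher. The monocyte markers summed to 21.8 to 70.2 and 11.6 to 189 CPM, and those of dendritic cells, with Ccl22 called higher, to 24.0 to 70.7 and 40.9 to 168 CPM. Cone markers summed to 488 to 1184 CPM without and 484 to 533 CPM with laser. Of these 7 genes, 0 were called and 5 had an unadjusted p under 0.05 (limma), with a median log2 fold change of -1.93. Their changes were unlike, with Pde6h at -0.01, Gngt2 at -0.31 and the others from -2.48 to -1.79, so the sum does not stand for each gene. The remaining 9 lists of retinal, vascular and blood cells had sums of at most 781 CPM in any library, and in them Pax6 was called lower and Gfap and Cspg4 higher. With a library left out, Ccl22 and Cspg4 kept the call in 7 of 7 fits, Gfap in 1 (adjusted p up to 0.0831, limma) and Pax6 in 0 (adjusted p 0.0617 to 0.123, limma). A fit with the replicate number as a block, in which lasered library 4 drops out, called only 3 of 17496 genes. None of Pf4, Ms4a7, Ccl22, Cspg4, Gfap and Pax6 was among them (adjusted p 0.0708 to 0.168, limma). The replicate numbers did not pair the samples. The neutrophil marker Ly6g was at or under 3 reads in every library. In sorted pools, fewer cells of a type and less RNA per cell cannot be told apart. The part of these other cells in the values below was not tested, except where a value without a library is given.

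The windows of 250 bases before the annotated starts (RefSeq, GRCm38.p6) are shown for 4 members, each written 5′ to 3′ on the strand of the gene. Windows were used for 6 of the 9 members, and Sall3 was left out of this search. GAGGAA, the core that PU.1 recognises, was searched on both strands and is in capitals (TTCCTC where the match is on the other strand). Mef2a, Mef2c and the proximal start of Runx1 are shown because they hold the core, and Sall1 because it was the member near the floor of detection.
Mef2a, chr7:67372859-67373108, minus strand: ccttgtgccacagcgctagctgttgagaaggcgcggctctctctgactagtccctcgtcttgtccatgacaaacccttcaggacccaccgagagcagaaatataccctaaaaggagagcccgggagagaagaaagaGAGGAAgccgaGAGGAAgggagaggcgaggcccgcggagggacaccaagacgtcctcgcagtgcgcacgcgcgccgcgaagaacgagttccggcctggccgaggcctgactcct
Mef2c, chr13:83503784-83504033, plus strand: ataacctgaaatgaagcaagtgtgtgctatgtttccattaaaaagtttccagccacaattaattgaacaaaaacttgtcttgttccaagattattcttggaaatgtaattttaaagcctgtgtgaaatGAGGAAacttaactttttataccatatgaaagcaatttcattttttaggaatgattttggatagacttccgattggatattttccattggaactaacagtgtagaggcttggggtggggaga
Runx1 proximal, chr16:92697330-92697579, minus strand: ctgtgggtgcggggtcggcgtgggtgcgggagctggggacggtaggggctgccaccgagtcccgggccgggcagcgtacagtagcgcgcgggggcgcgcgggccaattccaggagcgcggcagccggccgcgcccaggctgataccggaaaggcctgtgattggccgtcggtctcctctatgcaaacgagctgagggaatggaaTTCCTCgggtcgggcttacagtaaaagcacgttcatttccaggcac
Sall1, chr8:89044163-89044412, minus strand: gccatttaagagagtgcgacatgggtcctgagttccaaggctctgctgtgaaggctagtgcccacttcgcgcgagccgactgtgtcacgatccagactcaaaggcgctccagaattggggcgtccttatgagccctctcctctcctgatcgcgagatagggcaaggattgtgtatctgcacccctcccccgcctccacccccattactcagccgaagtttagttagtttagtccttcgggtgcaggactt
Mef2a held GAGGAA at -114 to -109 and at -103 to -98 from its start, Mef2c at -122 to -117, and Runx1 its complement at -46 to -41. The core occurs in 23.3% of the 32851 windows of all genes, so a match is common. TGTGGT (RUNX), TTGCNNAA (C/EBP), the AT-rich MEF2 core and TGCTGA (MAF), searched on both strands as well, occur in 14.0%, 9.56%, 3.20% and 16.1% of windows, and none of these 4 was found in the windows shown. A further start of Mef2c (window chr13:83573357-83573606, not shown) held TGCTGA at -104 to -99. Another (window chr13:83523406-83523655, not shown), which overlaps an annotated exon, held GAGGAA at -186 to -181. The Mef2c window shown is AT-rich, with 33.6% G and C and 1 CpG. Those shown for Mef2a, Runx1 and Sall1 had 61.6%, 67.6% and 56.4% G and C and 21, 27 and 13 CpGs. Further windows of Sall1, not shown, had 74.4% and 78.4% G and C and held none of the cores. Of the 11 windows searched, those of Cebpa, Cebpb and the distal start of Runx1, not shown, also held none.

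PU.1 is an ETS-domain factor, and Spi1 (ENSMUSG00000002111, chromosome 2 of GRCm38, 91082390 to 91115756, 7 exon blocks) was its transcript. Its level was 384, 352 and 356 CPM in unlasered libraries 1, 2 and 3. In lasered libraries 1 to 4 it was 319, 342, 304 and 381 CPM. Lasered library 4 lay within the unlasered range and the other 3 lay below it. The means were 364 ± 17.1 CPM (SD, n = 3) and 337 ± 33.2 CPM (SD, n = 4), and Spi1 was thus the member with the smallest spread over the 7 libraries, 8.43% of the mean. The log2 fold change on the log2(CPM + 1) scale was -0.12 with an SE of 0.12 and a 95% interval of -0.38 to 0.15 (adjusted p = 0.611, limma).

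RUNX1 marks the first blood-forming cells and works in a complex with CBFB. Runx1 (ENSMUSG00000022952, chromosome 16, 92601466 to 92826149, minus strand) spans 225 kb and has a distal and a proximal promoter. It was measured at 115, 109 and 230 CPM in unlasered libraries 1, 2 and 3. The lasered libraries gave 236, 215, 187 and 156 CPM. Unlasered libraries 1 and 2 were below every lasered library, whereas unlasered library 3 was above 3 of the 4. The log2 fold change was 0.46 with an SE of 0.26 and an interval of -0.13 to 1.05 (adjusted p = 0.338, limma), which as a fold runs from 0.915 to 2.07. Sall3 showed the same split of the unlasered libraries. Sall3 (ENSMUSG00000024565, chromosome 18, 80966376 to 80986771, minus strand) encodes a zinc-finger protein of the spalt family, which in the retina is known from horizontal cells and cones. It had 48.3, 46.0 and 86.7 CPM without laser and 87.1, 65.8, 71.1 and 73.3 CPM with laser. All 4 lasered libraries lay above unlasered libraries 1 and 2, and unlasered library 3 lay above 3 of them. The log2 fold change was 0.35 with an SE of 0.22 (adjusted p = 0.395, limma). Some of the Sall3 reads were listed jointly with Gm27238. Markers of horizontal cells summed to 6.71 to 13.8 CPM in all 7 libraries. Those of cones summed to 484 to 1184 CPM, with the highest sum in unlasered library 2. The median log2 fold change of the cone markers was -1.93, with Pde6h at -0.01, Gngt2 at -0.31 and the others from -2.48 to -1.79. The part of these cells in the Sall3 values was not tested.

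C/EBPα, needed for myeloid commitment, is encoded by the single-exon gene Cebpa (ENSMUSG00000034957, chromosome 7, 35119293 to 35121928). It was present at 71.1, 83.4 and 82.6 CPM without laser and at 92.6, 70.3, 65.2 and 96.1 CPM with laser. The lasered libraries fell on both sides of the unlasered ones, and the log2 fold change was 0.02 with an interval of -0.36 to 0.40 (adjusted p = 0.960, limma). C/EBPβ, which is induced by inflammatory signals, is encoded by another single-exon gene, Cebpb (ENSMUSG00000056501, chromosome 2, 167688915 to 167690418). Without laser Cebpb was tightly grouped at 155, 175 and 160 CPM. After laser it reached from 87.3 CPM in library 3 to 231 CPM in library 4, with 160 and 174 CPM in libraries 1 and 2. The means were 163 ± 10.2 CPM (SD, n = 3) and 163 ± 59.0 CPM (SD, n = 4), a log2 fold change of -0.08 with an interval of -0.71 to 0.54 (adjusted p = 0.895, limma). The spread of Cebpb after laser was 36.2% of the mean and that of Spi1 was 9.87%. A difference in spread between the groups was not tested.

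MEF2 factors are MADS-box proteins, and MEF2C restrains inflammatory activation of microglia. Mef2c (ENSMUSG00000005583, chromosome 13, 83504034 to 83667080) had the highest CPM of the 9 genes, with 805, 657 and 1012 CPM in unlasered libraries 1, 2 and 3. The lasered libraries had 649, 616, 748 and 678 CPM. Unlasered library 2 lay among the lasered libraries and the other 2 unlasered libraries lay above them all. The log2 fold change was -0.27 with an SE of 0.15 and an interval of -0.62 to 0.07 (adjusted p = 0.332, limma). Mef2a (ENSMUSG00000030557, chromosome 7, 67231163 to 67372858, minus strand) had 237, 225 and 433 CPM without laser and 269, 234, 261 and 280 CPM with laser. The lasered libraries were close together, at 261 ± 19.6 CPM (SD, n = 4), whereas unlasered library 3 carried the unlasered mean to 298 ± 117 CPM (SD, n = 3). The log2 fold change of Mef2a was -0.13 with an interval of -0.62 to 0.36 (adjusted p = 0.774, limma). Some of its reads were listed jointly with Gm44667 and Gm44668.

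SALL1 is a zinc-finger repressor that, among brain macrophages, marks microglia. Sall1 (ENSMUSG00000031665, chromosome 8, 89027235 to 89044162, minus strand) was close to the floor in lasered as in unlasered libraries. After laser it had 60, 18, 9 and 3 reads in libraries 1 to 4, or 1.36, 0.401, 0.196 and 0.0808 CPM, and lasered library 4 was thus at the floor of 3 reads. The unlasered libraries had 23, 0 and 5 reads, or 0 to 1.13 CPM, so the groups overlapped. Its spread over the 7 libraries was 116% of the mean. Sall1 did not reach the minimum for the test, which was 1 CPM in at least 3 libraries. With a minimum mean of 10 reads in its place, the log2 fold change was 0.10 with an SE of 0.33 and an adjusted p of 0.894 (limma).

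c-MAF is a basic leucine zipper factor of differentiated macrophages. Maf (ENSMUSG00000055435, chromosome 8, 115682942 to 115707794, minus strand) was expressed at 411, 320 and 336 CPM without laser. After laser it had 303, 285, 323 and 308 CPM. Lasered library 3 lay just above unlasered library 2 and the other 3 lay below every unlasered library. The log2 fold change was -0.21 with an SE of 0.12 and an interval of -0.49 to 0.06 (adjusted p = 0.340, limma).

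**Figure D1:**
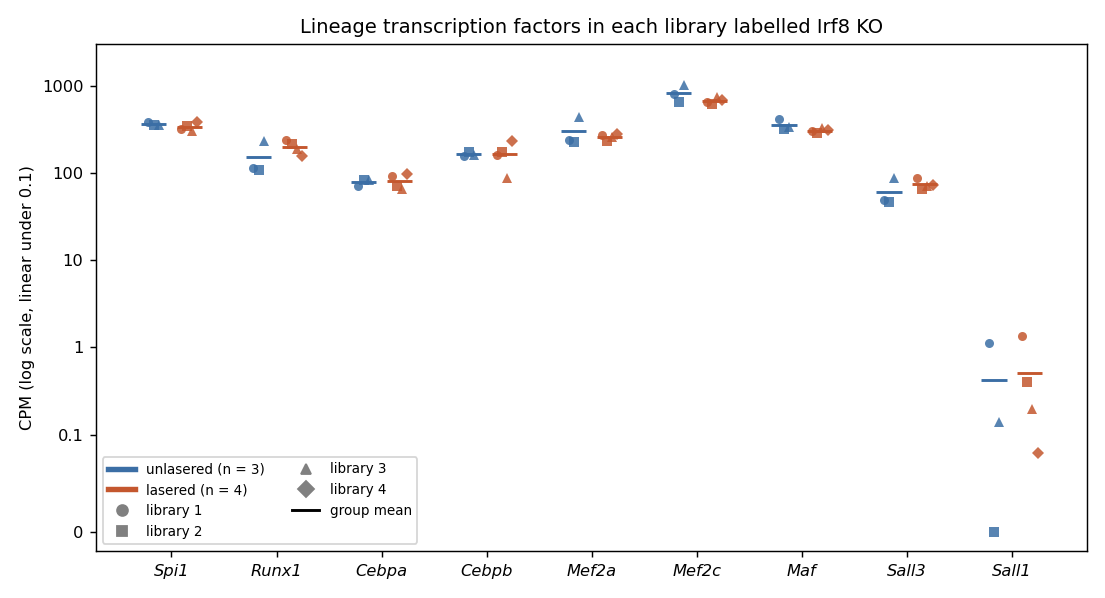
Level of each of the 9 genes in CPM (y axis, log scale, linear at the lowest values) in the 3 unlasered and 4 lasered libraries labelled Irf8 KO. Points are libraries, with the shape giving the library number, and horizontal lines are group means. The 2 groups overlapped for every gene, and unlasered library 3 stood above libraries 1 and 2 for Runx1, Mef2a, Mef2c and Sall3.

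No lineage factor passed the test of lasered against unlasered libraries. Of 17496 genes tested, 6.93% were called, 3.86% higher and 3.07% lower, and 0 of the 8 members tested were among them. By edgeR (1266 genes called) and by DESeq2 (2318 genes called) on recovered reads 0 members were called too. In limma 0 members had an unadjusted p under 0.05. The groups overlapped for all 8, while they did not overlap for 21.0% of the genes tested. Of the members, 3 had a positive log2 fold change (Runx1, Sall3 and Cebpa) and 5 a negative one, with a median of -0.10 beside -0.01 over all genes tested. The median size of a change over all tested genes was 0.24 on the log2 scale in either direction, and the change of Mef2c, Sall3 and Runx1 was above that. The 95% interval of the fold was 0.770 to 1.11 for Spi1 and 0.712 to 1.04 for Maf. It was wider for Cebpb, from 0.613 to 1.46, and for Mef2a, from 0.652 to 1.28. In simulated data with the design of this comparison, 0% of 194 genes changed 1.5-fold, 20.9% of 196 genes changed 2-fold and 89.6% of 193 genes changed 4-fold were called. The changed genes were drawn at random from all genes tested, at any level. Departures shared by many genes of a library were not simulated, so these shares need not hold for the members. Nothing in the labels states more about the libraries than that they are separate pools, so the p-values measure the spread between these pools.

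**Figure D2:**
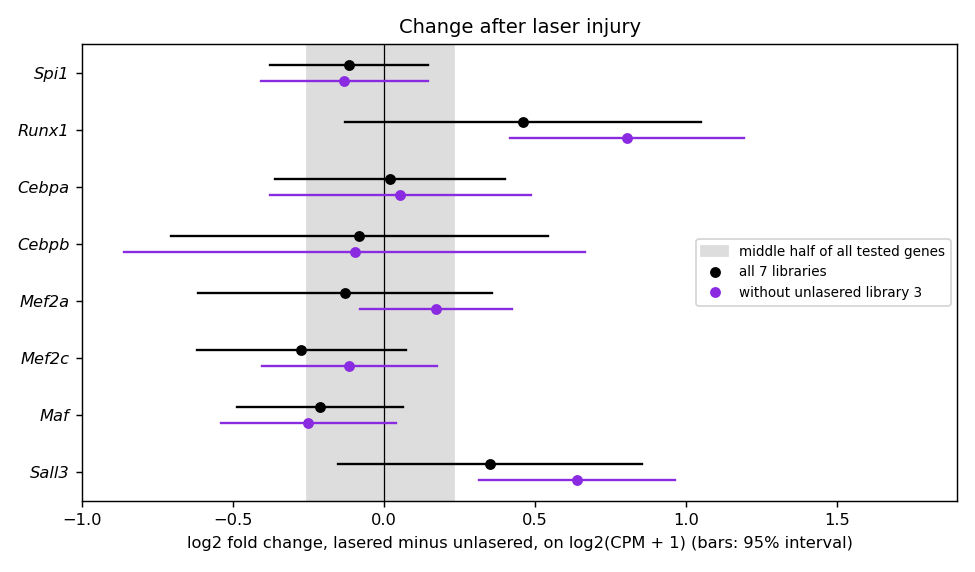
Log2 fold change of lasered against unlasered libraries (x axis) for the 8 genes tested, with 95% intervals from limma over all 7 libraries and without unlasered library 3. All 8 intervals over 7 libraries include 0, and those of Runx1 and Sall3 do not once unlasered library 3 is left out.

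One unlasered library decided the result for 2 of the genes. Without unlasered library 3, Runx1 was higher after laser with a log2 fold change of 0.80 (adjusted p = 0.0353, limma) and Sall3 with 0.64 (adjusted p = 0.0391, limma). This fit called 1248 of 17073 genes, against 1213 of 17496 with all libraries. An unadjusted p under 0.05 was found for 4790 genes, against 3963 with all libraries (limma). In the fit without unlasered library 3, Mef2a had a log2 fold change of 0.17 (adjusted p = 0.336, limma), against -0.13 with all libraries, and Mef2c one of -0.12. Unlasered library 3 held 2.05 times the mean of the other 2 unlasered libraries for Runx1, 1.87 times for Mef2a, 1.84 times for Sall3 and 1.38 times for Mef2c. For Spi1, Cebpa, Cebpb and Maf the ratio was between 0.920 and 1.07. Unlasered library 3 had 36022954 reads, beside 34242962 in library 2, and a rod sum between those of the other 2. The part of depth and of rod RNA in its departure was not tested. Leaving out unlasered library 2, the one richest in rod RNA, left 0 members called, and Mef2c then had the lowest adjusted p (0.157, limma).

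**Figure D3:**
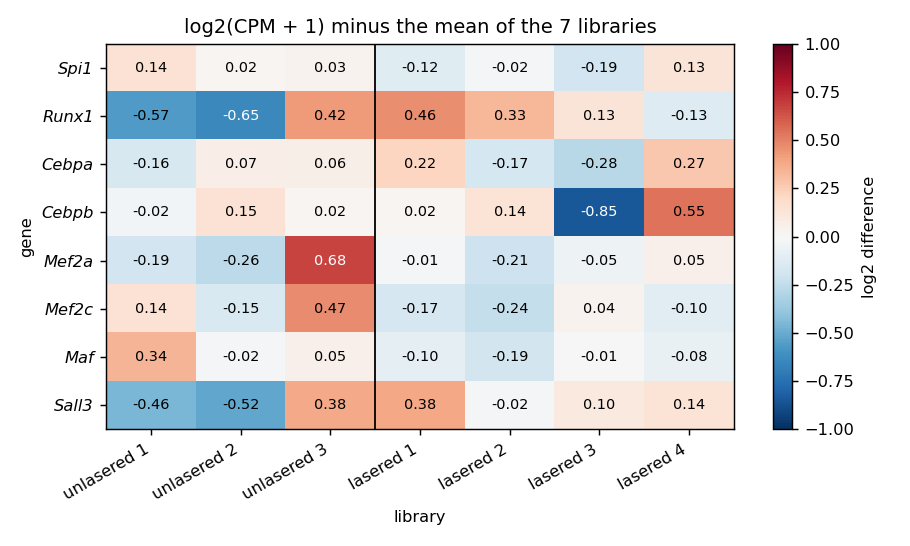
Difference of each library from the mean of all 7 on the log2(CPM + 1) scale (colour and numbers) for the 8 genes tested, with libraries in columns. In unlasered library 3, Mef2a (0.68), Mef2c (0.47), Runx1 (0.42) and Sall3 (0.38) are furthest above their means, and the largest departure of Cebpb is in lasered library 3, at -0.85.

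Gene length went along with the departure of unlasered library 3. Over 12787 protein-coding genes tested, the median log2 difference of unlasered library 3 from the mean of libraries 1 and 2 was 0.02. For 348 genes with 1 exon block it was -0.21, for 2436 genes spanning under 10 kb it was -0.23, for 5990 genes of 10 to 50 kb it was 0.04, for 1935 genes of 50 to 100 kb it was 0.27 and for 2078 genes of 100 kb or more it was 0.19. Runx1 was 1.03 and Mef2a 0.90 on this scale, both genes of over 100 kb and above the upper quartile of their class (0.62), and Mef2c, also over 100 kb, was 0.48. Sall3, which spans 20.4 kb, was 0.87, above the upper quartile of genes of 10 to 50 kb (0.37). Spi1, Maf, Cebpa and Cebpb were between -0.11 and 0.10, and Cebpa at 0.10 was just above the upper quartile of genes with 1 exon block (0.07). Pairs of genes listed with joint reads were examined where both genes were in GENCODE. Of these, 3815 of 5240 overlapped in their spans and not in their exons, Mef2a and its partners among them. The pair of Sall3 was left out, since its partner was not in GENCODE. Intron and exon reads are not separated in the table, and the part of either in the Runx1, Mef2a and Sall3 values was not tested.

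**Figure D4:**
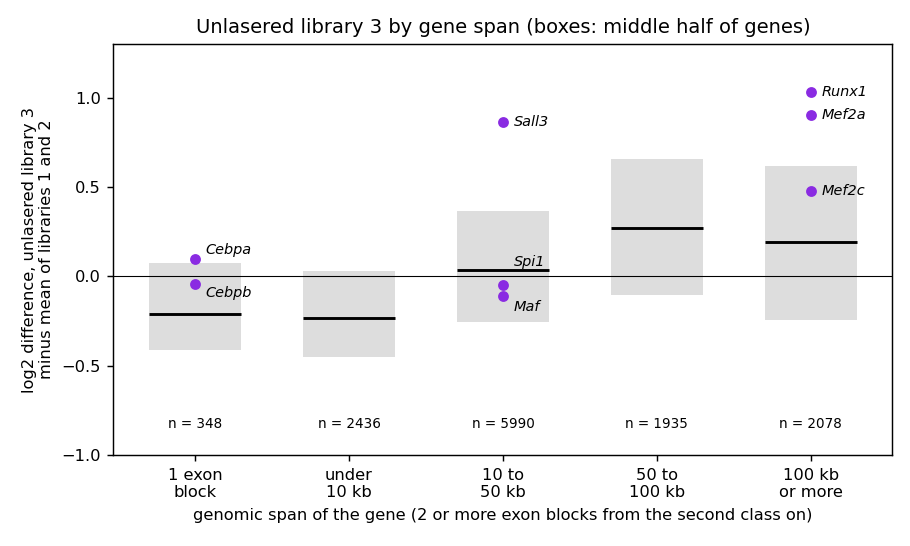
Log2 difference of unlasered library 3 from the mean of unlasered libraries 1 and 2 (y axis) in protein-coding genes grouped by genomic span (x axis), as median and quartiles, with the 8 tested lineage factors as points. Runx1 (1.03), Mef2a (0.90) and Sall3 (0.87) lie far above the upper quartile of their class (0.62 for genes of 100 kb or more and 0.37 for genes of 10 to 50 kb).

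Related factors were also compared as ratios within a library, which do not depend on the scaling. Cebpa was 0.483 times Cebpb without and 0.519 times Cebpb with laser (geometric means of libraries), a log2 difference of 0.10 (exact permutation test, two-sided, p = 0.80). The ratio of Mef2a to Mef2c was 0.351 and 0.388, a log2 difference of 0.15 (exact p = 0.457). For Runx1 to Spi1 it was 0.391 and 0.584, a log2 difference of 0.58 (exact p = 0.229), with unlasered libraries 1 and 2 at 0.300 and 0.308 and library 3 at 0.645. Adjusted over the 3 ratios, the exact p-values were 0.80, 0.686 and 0.686, and the smallest p that 3 against 4 libraries allow is 0.057.

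Levels of different genes were compared after division by exonic length, as CPM per kb, and the genes then spread widely. Intron and exon reads were not separated in the deposited values, so any intron reads were divided by exonic length too. Their part in this order and in the shares of genes exceeded was not tested. Spi1 was highest at 129 ± 10.9 CPM per kb (SD, n = 7), followed by Cebpb at 108 ± 28.0. Mef2c had 46.9 ± 8.72, Maf 39.6 ± 4.90 and Cebpa 30.4 ± 4.45 CPM per kb. Mef2a had 18.9 ± 4.88, Runx1 14.8 ± 4.39 and Sall3 9.14 ± 2.20 CPM per kb. Sall1 was last at 0.0896 ± 0.104 CPM per kb. The ranges of neighbours in this order overlapped over libraries except for Sall3 and Sall1. Within a library Spi1 was above Cebpb in 6 of 7 libraries and Mef2a above Runx1 in 5 of 7, and the other 6 neighbouring pairs kept their order in 7 of 7. With the longest transcript as length, Mef2c was at 118 CPM per kb and in the second place, Mef2a at 50.0 and Runx1 at 30.4, so the middle of the order depended on the transcript that is assumed. Spi1 exceeded 99.0% of all genes in CPM per kb, Sall3 84.8% and Sall1 38.1%.

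The relatives and partners of the lineage factors were for the most part not called either. Of 40 genes in 6 family lists, 34 were tested, 1 was higher and 3 were lower after laser, with a median log2 fold change of 0.08. The family lists and the lists of target genes were compared with the background of 6.93% by their counts alone. Among ETS factors 0 of 11 tested genes passed, and 1 had an unadjusted p under 0.05 (limma). The count was 0 by edgeR and 1 by DESeq2, which called Elk3 higher, and without unlasered library 3 Etv6 was called higher by limma. Fli1, a partner in blood-cell enhancers, was the highest at 289 CPM over all libraries (log2 fold change 0.11), followed by Etv6 at 149 CPM and Elf1 at 128 CPM (log2 fold change 0.05). Etv6 had 93.7 and 93.5 CPM in unlasered libraries 1 and 2, 185 CPM in unlasered library 3 and 141 to 203 CPM after laser, with unlasered library 3 apart from the other 2 as for Runx1. Spib and Spic, the nearest relatives of Spi1, were at 1.29 and 1.15 CPM.

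In the RUNX family 1 of 6 genes was lower and 0 were higher. Cbfb, the common partner, had 92.5 CPM and was not called (log2 fold change 0.17), and neither were Cbfa2t2 (50.2 CPM) and Runx2 (44.4 CPM, log2 fold change 0.65, adjusted p = 0.197, limma). Runx1t1, a corepressor, was called lower, from 1.28 to 2.89 CPM without to 0.385 to 0.779 CPM with laser (log2 fold change -0.90, adjusted p = 0.0494, limma), and was called in 0 of the 4 fits that left out a lasered library (adjusted p 0.0906 to 0.130, limma). In each fit without 1 unlasered library it fell under the minimum level for the test. Runx3 had 18.9 to 23.7 CPM without and 24.6 to 42.9 CPM with laser, groups that did not overlap (log2 fold change 0.64, adjusted p = 0.106, limma), and DESeq2 called it higher. Among C/EBP genes Cebpg (149 CPM), Cebpd (81.6 CPM) and Cebpz (80.6 CPM) led, and 1 of 6 tested was called. This was Trib2, a pseudokinase that promotes C/EBPα breakdown, with 2.69, 23.3 and 9.08 CPM in unlasered libraries 1, 2 and 3 and 0.0445 to 2.40 CPM after laser (log2 fold change -2.59, adjusted p = 0.0416, limma). The order of its unlasered libraries was that of the rod markers, whose part in the change was not tested. Trib2 lost the call without unlasered library 2 or 3 or lasered library 2, 3 or 4 (log2 fold change -2.64 to -1.93, adjusted p 0.0773 to 0.111, limma), and neither edgeR nor DESeq2 called it.

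Mef2d was the third MEF2 factor by level, at 73.3 CPM, with 124 CPM in the rod-rich unlasered library 2 and 49.8 to 87.9 CPM in the others. The class IIa deacetylase Hdac9, which binds MEF2, had 268 CPM and Hdac5 52.3 CPM, and 0 of 5 tested genes of this list passed or had an unadjusted p under 0.05 (limma), with 0 by edgeR and DESeq2 too. Sall2 was at 5.72 CPM and Sall4 at 0.183 CPM, and Sall2, the 1 gene of this list that was tested, was not called (log2 fold change -0.41, adjusted p = 0.338, limma). The small MAF factors Mafg and Mafk had 77.6 and 24.1 CPM. Of 5 MAF genes tested, Maff was higher, from 0.438 to 1.32 CPM without to 1.94 to 3.94 CPM with laser (log2 fold change 1.11, adjusted p = 0.0374, limma). It kept the call without unlasered library 1 or lasered library 4, and the other 5 fits gave an adjusted p of 0.0742 to 0.0986 (limma). Nrl, the rod MAF factor and a rod marker here, was lower (12.5, 103 and 28.5 CPM without and 2.26 to 4.79 CPM with laser, log2 fold change -2.99, adjusted p = 0.0218, limma). Without lasered library 2 or 3 its adjusted p was up to 0.0650 (limma).

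**Figure D5:**
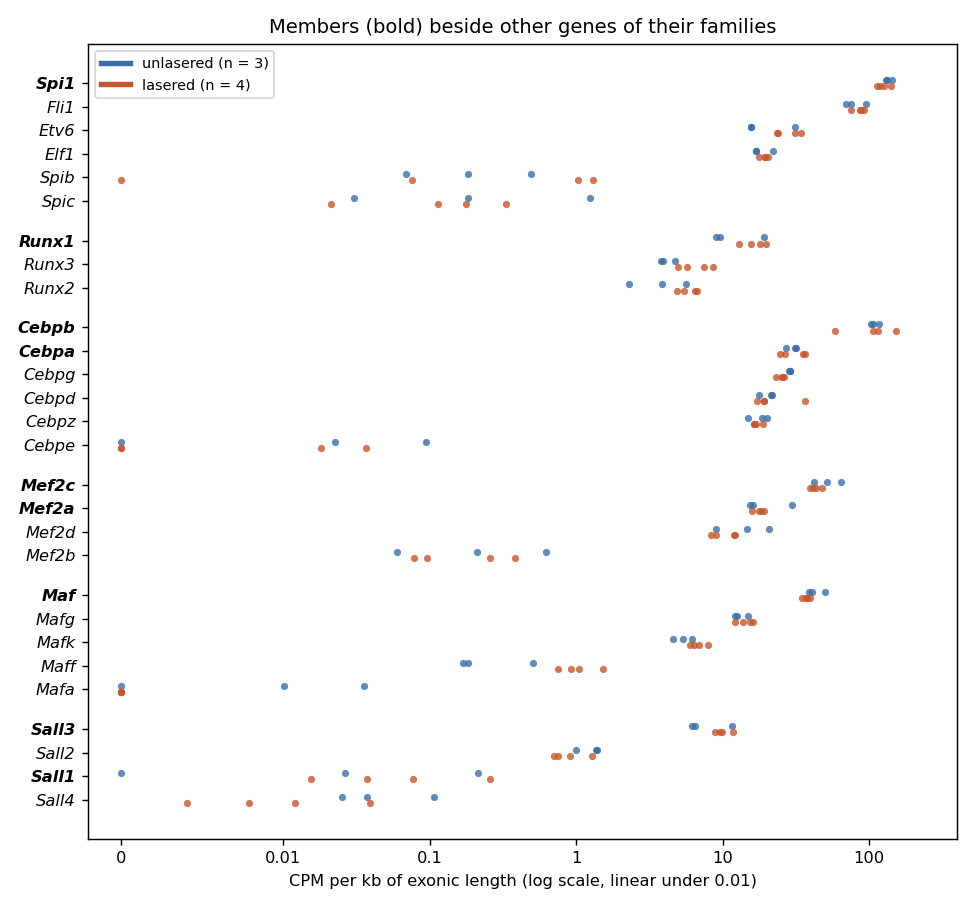
Level as CPM per kb of exonic length (x axis, log scale, linear under 0.01) of the lineage factors (bold) and a selection of their relatives, grouped by family, with 1 point per unlasered or lasered library. Spi1 (mean 129) and Cebpb (mean 108) are the highest of those shown, and Sall1 (mean 0.0896) lies far below Sall3 (mean 9.14).

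Target genes gave 5 calls among the lists for these factors. Of 24 PU.1 targets tested 2 were higher and 0 lower, with a median log2 fold change of 0.13. Csf2ra and Csf2rb, the chains of the GM-CSF receptor, were these 2. Csf2ra was at 48.6 to 59.9 CPM without and 69.7 to 116 CPM with laser (log2 fold change 0.82, adjusted p = 0.0355, limma). Csf2rb was at 40.2 to 89.9 and 106 to 178 CPM (log2 fold change 1.37, adjusted p = 0.0248, limma), with some of its reads listed jointly with another gene. Csf2ra kept the call only without lasered library 3 and Csf2rb only without lasered library 4 or unlasered library 3, and the other fits gave an adjusted p of 0.0542 to 0.0981 (limma). The PU.1 target of highest CPM, Csf1r, the receptor that microglia need to survive, had a log2 fold change of 0.09. Ctss had one of 0.34 and Laptm5 one of 0.03.

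Of 15 SALL1-dependent genes 0 passed, with a median of -0.34 beside -0.01 over all genes, and 7 had an unadjusted p under 0.05 (limma), against 22.7% of all genes tested. By edgeR 0 were called, and by DESeq2, which called 2318 of all 17496 genes tested, 2 were lower, P2ry12 and Slc2a5. These 2 were also lower without lasered library 4, and Cst3 was lower without unlasered library 3 (limma). Cst3 and Fcrls were among the highest of this list, and Cst3 had a log2 fold change of -0.46 (adjusted p = 0.127, limma). Among 12 target genes of MAF factors tested the median was 0.12. Apoe, C1qb and C1qa were the highest of them and had log2 fold changes of -0.58, 0.38 and 0.10. Axl, a receptor in the uptake of dying cells, was called higher (34.1 to 55.0 CPM without and 68.0 to 260 CPM with laser, log2 fold change 1.74, adjusted p = 0.0478, limma). The call was kept only without lasered library 4, and the other 6 fits gave an adjusted p of 0.0613 to 0.132 (limma). Among 9 C/EBP targets tested the median was 0.15 and 2 were higher. Ccl3 and Arg1, next to Saa3 the highest of this list, were not called by limma, and DESeq2 called Arg1 higher. Arg1 had 0.250 to 1.47 CPM without and 0.218 to 138 CPM with laser. Saa3, an acute phase protein, rose from 7.27 to 12.7 CPM to 46.2 to 176 CPM (log2 fold change 3.28, adjusted p = 0.00611, limma) and kept the call without any 1 library. Lcn2, which binds bacterial siderophores, was at 0.292 to 2.35 and 3.43 to 6.32 CPM (log2 fold change 1.62, adjusted p = 0.0320, limma), and only without unlasered library 1 was it called with 1 library fewer. Of 44 other regulators tested, Egr2 was higher (0.555 to 2.59 CPM without and 3.10 to 5.28 CPM with laser, log2 fold change 1.23, adjusted p = 0.0437, limma) and Nr4a1 lower (37.4 to 96.4 and 7.40 to 18.7 CPM, log2 fold change -2.10, adjusted p = 0.0231, limma), with a median of 0.00. Egr2 was called in 1 of 7 fits with a library left out (adjusted p up to 0.117, limma), and Nr4a1 in 6 of 7, not without lasered library 3 (adjusted p 0.0625, limma). With the replicate number as a block, a fit that leaves out lasered library 4 for want of a partner, 3 of 17496 genes were called. Of these target and regulator genes 0 were among them. Of the 44 other regulators tested, 7 had an unadjusted p under 0.05 (limma). By CPM, without division by length, Nfe2l2, Irf8 and Ski were the highest regulators, with the Irf8 reads listed only jointly with Gm20388.

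The genes whose profile over the 7 libraries was closest to each member were named by the root mean square difference of centred log2(CPM + 1), among 10288 genes with a mean of at least 10 CPM. Runx1 was nearest to Fzd7 (0.063) and Arid1b (0.066), Sall3 to Inpp5d (0.064) and Kif13b (0.070), and Mef2a to Lrch3 (0.054) and Lysmd4 (0.057). Mef2c was nearest to Rsbn1 (0.066) and Tlr4 (0.078). For Spi1 these were Scamp4 (0.020) and Wdr18 (0.052), for Maf Nipsnap2 (0.047) and Cr1l (0.048), for Cebpa Cpped1 (0.065) and Cog7 (0.084), and for Cebpb Jdp2 (0.119) and Trp53i13 (0.158). The departure of Runx1 from its own mean was 0.43 on the same scale and that of Spi1 0.11, so a small value for Spi1 comes with a flat profile.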

How the data were processed

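Retinal microglia of mice labelled Irf8 KO were profiled by RNA-seq in 7 libraries (3 unlasered, 4 lasered), and groups were taken from the sample titles. The authors removed adapters with cutadapt and duplicates with FastUniq, mapped reads with Bowtie2, counted them with HTSeq on annotation version 90 and deposited values headed TPM. These deposited values are CPM, since all values of a library are multiples of the value of 1 read. Whole reads were recovered for 100% of values (tolerance 0.1 read). Build GRCm38 is from the submitters' processing notes, and lengths and coordinates are from GENCODE M21.

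Genes reaching 1 CPM in 3 or more libraries were tested with limma 3.58.1 on log2(CPM + 1), with trend and robust empirical Bayes, two-sided, in R 4.3.3. P-values were adjusted by Benjamini-Hochberg over all genes tested, and 0.05 was the threshold. Alternatives included edgeR 4.0.16 and DESeq2 1.42.0 on recovered reads. The fit was tested on simulated data with 200 changed genes. The study named DESeq2 on counts; normalised values were tested with limma here. Python 3.11.15 was used for tables and figures.

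The members and lists were chosen with earlier results of these data known. Named genes were the members, the called genes and the 3 genes of highest mean CPM in each related list. Called cell type genes, the 2 genes closest to each member, and Irf8 were named too. A few genes that this rule names are not reported here. Runx3, Elk3, Cbr2, Spib, Spic, P2ry12, Slc2a5 and Ly6g were named after their values were seen. Replicate numbers did not pair the samples, since correlations of same-numbered libraries were -0.18, -0.13 and -0.02. The windows before gene starts came from RefSeq.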

Additional observations from a re-analysis of the deposited data

How the results depend on the processing

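Over 273 alternatives, 247 kept direction and side of the threshold or moved within the spread, 15 values moved, 9 changed sign and 2 passed the threshold. Changes of sign were in small differences. Cebpb had a log2 fold change of 0.0107 by edgeR and 0.00932 by DESeq2, and -0.28 to 0.19 with each library left out in turn. Over the same fits Cebpa ranged from -0.068 to 0.12, Mef2a from -0.30 to 0.17 and the ratio of Cebpa to Cebpb from -0.071 to 0.22, while Runx1 ranged from 0.27 to 0.80, Sall3 from 0.19 to 0.64 and the number of members called from 0 to 2. The number of genes called was 264 to 1248 with a library left out, 385 with no filter on low values and 2318 by DESeq2, against 1213. With median-of-ratios scaling the calls were 935 higher and 504 lower, against 676 and 537, and the median of all genes was 0.06. With the replicate number as a block 3 genes and 0 members were called, and Cebpa had a log2 fold change of -0.068 in this fit, in which lasered library 4 has no partner and drops out; the numbers did not pair the samples. With the longest transcript as length, levels were 171 CPM per kb for Spi1, 30.4 for Runx1, 50.0 for Mef2a, 118 for Mef2c and 51.4 for Maf. Leaving out genes with jointly listed reads gave no value for Mef2a and Sall3. Except for the length, which divides the same reads, the cause was not tested. Sall1 was at or under the floor of 3 reads in unlasered library 2 and lasered library 4.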
